A study of Mus musculus with 30 samples.

Results

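1700011H14Rik and 0610012H03Rik are 2 mouse genes that were high in adult kidney and were followed here across 15 adult tissues. The second is now named Them7. Each gene was read by 1 probe, Z00044310-1 for 1700011H14Rik and Z00048243-1 for Them7, and the probes were paired with the symbols through the probe lists of the study. They are 2 of the 25030 probes in the authors' value table and 2 of the 21026 that passed the filter on dim signals. The members were chosen by their kidney values, as the 2 named genes with the largest difference between kidney and the mean of the other 14 tissues among those whose kidney arrays both lay above every other array. Their kidney levels are therefore a description and carry no test. The members were tested only on the 28 arrays of the 14 tissues without kidney, which entered the choice only as the level that kidney was set against. Other genes were also tested in contrasts over all 30 arrays.

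Untreated adult C57BL/6 mice, all male and, by the labels, 28 weeks of age, gave kidney, bladder and liver, stomach with small and large intestine, heart, muscle and bone, brain cortex, cerebellum and eyes, and lung, skin and fat. The methods of the study give a different age from the labels. Each tissue was on 2 arrays, 30 in all. Every array carried tissue RNA in the Cy3 channel and the same reference RNA in the Cy5 channel, a mixture of RNA from cultured mouse cell lines, kidney and liver lines among them, with embryonic stem (ES) cell RNA. The study used these tissues to score how tissue-specific each gene is. The series text names a single replication for bone and fat, although 2 arrays of each are labelled, and the methods speak of different animals for every organ. The identifiers of 3 of these 4 arrays, fat replicate 2 among them, carry another replicate number than the titles. Whether the fat arrays come from different animals is therefore uncertain. The paper calls the fat visceral. Levels are given as the log2 ratio of tissue over reference, so 0 means as much signal as in the reference. In whole tissue, more cells that express a gene and more RNA per cell cannot be told apart.

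Median Cy3 signals per array ran from 85.7 to 175 scanner units, and 53.9% to 76.9% of the probes were well above background in Cy3. No probe was saturated (0 probes). The arrays of fat differed widely from each other, and so did those of large intestine. Of 21007 probes with a value on both fat arrays, 13.2% were higher by log2 1 or more in replicate 1, and 16.3% of 21019 probes were so in large intestine, against 0.614% of 21017 probes in small intestine. The shares lower by log2 1 or more in replicate 1 were 6.93% in fat, 8.97% in large intestine and 0.671% in small intestine. The fat arrays were scanned on different days, and so were the pairs of large intestine, bone, brain cortex and lung, where the shares higher in replicate 1 were 6.63% in bone, 0.514% in brain cortex and 0.785% in lung. The other 10 pairs were each scanned on the same day, with shares of 0.105% to 1.17%. With 2 arrays a pair cannot say which of them departs from the tissue, so results that rest on the fat or large intestine pair are given without each array in turn.

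Thioesterases cleave the bond between a fatty acid and coenzyme A, which releases the free acid and the coenzyme. The reaction runs opposite to the activation of fatty acids by acyl-CoA synthetases, and both stand beside beta-oxidation, in which mitochondria and peroxisomes shorten activated fatty acids. Kidney proximal tubule cells and hepatocytes both rely heavily on fatty acid oxidation. Them7 belongs by name to the thioesterase superfamily. 1700011H14Rik appears in RefSeq as ccdc198, a gene for a protein with a coiled-coil domain.

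In RefSeq (GRCm38.p6) 1700011H14Rik spans chr14:49226358-49245445 (19088 bases) and Them7 spans chr2:105224342-105379860 (155519 bases). Both symbols matched an entry there. The probes of 60 bases are shown because all levels rest on what hybridised to them. Their position within the transcript was not analysed here.

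1700011H14Rik probe: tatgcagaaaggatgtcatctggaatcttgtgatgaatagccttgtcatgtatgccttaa
Them7 probe: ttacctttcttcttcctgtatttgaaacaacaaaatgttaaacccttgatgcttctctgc

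Of the 42006 probes on the array, 0 others shared a run of 20 bases with either probe on either strand. The bases were 38.3% G or C in the 1700011H14Rik probe and 35.0% in the Them7 probe.

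The promoters are shown because the study related tissue specificity to CpG islands and the TATA box. The study called islands by software and sought a degenerate TATA pattern within a narrow range upstream of the start. The counts given here are other measures and do not give the CpG island or TATA status that the study used. Each window runs from 250 bases before to 50 after a start that RefSeq gives, on the strand of the gene, at chr14:49245379-49245678 (minus strand) for 1700011H14Rik and chr2:105224092-105224391 (plus strand) for Them7. The start used for 1700011H14Rik lies just inside the end of the gene span given above, and that for Them7 is the first base of its span. CG pairs are in capitals.

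1700011H14Rik promoter: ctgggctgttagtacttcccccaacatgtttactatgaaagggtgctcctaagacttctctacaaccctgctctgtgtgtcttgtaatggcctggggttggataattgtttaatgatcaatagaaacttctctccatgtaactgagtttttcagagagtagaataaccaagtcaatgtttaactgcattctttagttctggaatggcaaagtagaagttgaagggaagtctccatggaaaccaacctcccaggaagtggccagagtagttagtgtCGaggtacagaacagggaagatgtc
Them7 promoter: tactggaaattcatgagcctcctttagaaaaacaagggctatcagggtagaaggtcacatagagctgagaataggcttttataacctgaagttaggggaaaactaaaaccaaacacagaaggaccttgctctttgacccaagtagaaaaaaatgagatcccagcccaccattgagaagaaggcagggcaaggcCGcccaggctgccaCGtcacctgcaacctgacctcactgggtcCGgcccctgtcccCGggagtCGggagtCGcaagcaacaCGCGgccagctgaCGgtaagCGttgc

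The genes differed in CG content. The 1700011H14Rik window held 1 CG pair, and 5.4% of 32851 promoter windows of this length had fewer, whereas the Them7 window held 10, with 56.5% of the windows below it and a median of 7 over all. The Them7 pairs lay towards the start, as the capitals show. The TATA box letters TATAAA, searched on both strands, matched 1 time in the Them7 window, on the opposite strand 167 bases upstream of the start, and 0 times in that of 1700011H14Rik. They occur in 13.6% of the windows. GTTAAT, a half-site of the liver and kidney factor HNF1, and CAAAGTCCA, a site of HNF4, matched 0 times in either window and occur in 7.1% and 0.475% of all windows. A match describes letters only and was set against no expression value.

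Kidney held the highest level of both genes. The log2 ratio of 1700011H14Rik was 8.11 on kidney replicate 1 and 7.91 on replicate 2, a mean of 8.01 ± 0.15 (SD, n = 2). That of Them7 was 6.26 and 6.09, a mean of 6.18 ± 0.12 (SD, n = 2). For both genes the 2 kidney arrays lay above all 28 others. The Cy3 signal behind these ratios was 35011 and 40085 scanner units for 1700011H14Rik and 9797 and 11576 for Them7.

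**Figure D1:**
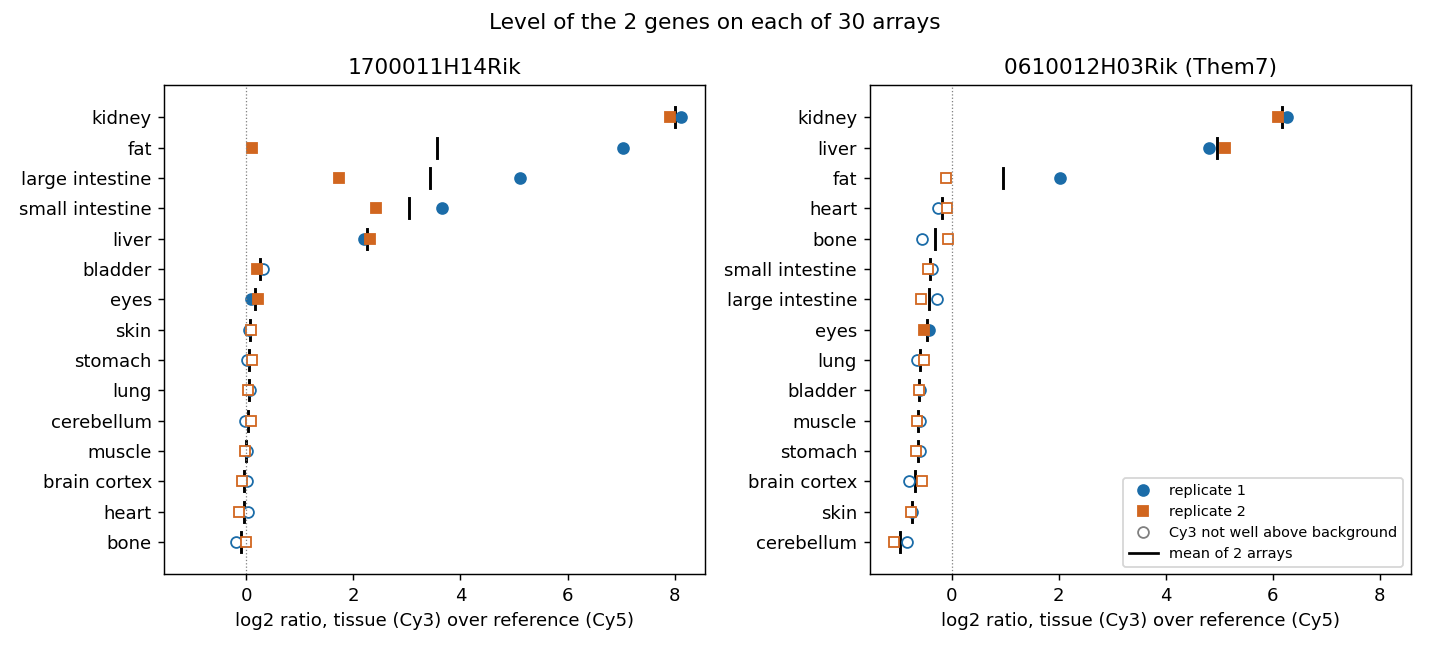
Log2 ratio of tissue (Cy3) over reference (Cy5) on each of the 30 arrays, with tissues ordered by their mean for 1700011H14Rik (left) and Them7 (right). Circles and squares are replicates 1 and 2, open symbols are arrays whose Cy3 signal was not well above background, and bars are means of 2 arrays. Both genes were highest in kidney, Them7 was also high on both liver arrays (4.80 and 5.10), and 1700011H14Rik spread from 0.10 to 7.04 between the fat arrays.

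Against the mean of the other 14 tissues the kidney level of 1700011H14Rik was higher by log2 7.10 and that of Them7 by 6.23, ranks 12 and 31 among 21025 probes, most of which have no symbol here. Probes called higher in kidney (adjusted p under 0.05 and a log2 difference of at least 2) made up 4.21% of those tested, and probes called lower made up 2.09%. Since the choice rested on this contrast, nothing is read from it. The next named genes under the same rule, just outside the choice, were Pkhd1 with 5.54, 1700016C15Rik with 5.35 and 6332401O19Rik (now Tmem229a) with 5.34. Pkhd1 encodes fibrocystin, the product of the gene mutated in recessive polycystic kidney disease. Of 13 measured nephron markers, 8 were called higher in kidney, among them Ren1, the renin gene (log2 difference 3.41), and the anion transporter gene Slco4c1 (2.96). Slco4c1 was higher on fat replicate 1 (3.27) than on the kidney arrays (2.72 and 2.82). Among the called markers, Slc23a3 had its highest mean in stomach and Tcfap2b in skin. Slc22a12, Acmsd, Aqp1, Ace and Pappa2 were not called.

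The reference signal was not flat across arrays for these probes. Cy5 of 1700011H14Rik was 333 and 377 scanner units on the kidney arrays and 173 on fat replicate 1, against 55.7 to 137 (median 65.0) on the other 27. For Them7 it was 346 and 376 in kidney and 158 on fat replicate 1, against 112 to 205 (median 142) on the other 27, the highest of which was liver replicate 2. The same RNA was in this channel on every array, yet for both probes the reference signal was highest on the kidney arrays, where the tissue signal was highest. Of 87 other probes with a Cy3 signal of at least 10000 in kidney and a median Cy5 signal under 150 elsewhere, 87 also had a higher Cy5 in kidney than that median. The median log2 difference was 4.02, against 0.06 over all 21026 probes, and the choice of probes by a low Cy5 elsewhere favours such a difference. The part of the Cy5 differences in the ratios was not tested. On the normalised Cy3 level kidney exceeded liver 167-fold for 1700011H14Rik and 4.01-fold for Them7, compared with 54.1-fold and 2.34-fold on the ratio scale.

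**Figure D2:**
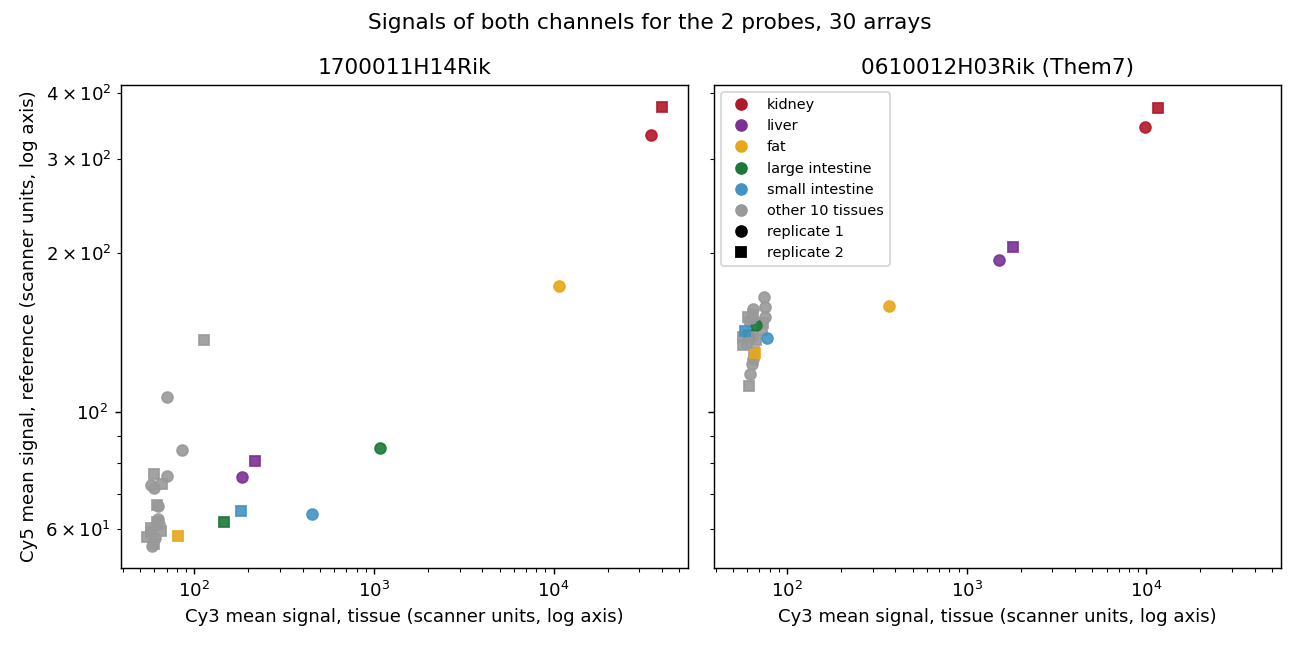
Cy3 signal of the tissue (x) against Cy5 signal of the reference (y), in scanner units on log axes, for 1700011H14Rik (left) and Them7 (right) on 30 arrays. The 2 kidney arrays lie highest in both channels, with Cy5 at 333 and 377 for 1700011H14Rik against a median of 65.0 on 27 other arrays.

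Liver was the other tissue with a high Them7 level. The log2 ratio was 4.80 and 5.10 on the liver arrays, a mean of 4.95 ± 0.21 (SD, n = 2), and every array of the 13 remaining tissues apart from kidney lay at 2.03 or lower. Hepatocyte markers marked the organ, with 9 of 10 called higher in liver than in the mean of the other 14 tissues, against 0 of 13 nephron markers and 5.4% of all probes. Without the kidney arrays Them7 differed among the 14 tissues (limma F-test, F = 28.5, adjusted p = 2.81e-08), where 89.9% of 20974 probes did. Liver exceeded the mean of the other 13 tissues by log2 5.39 (SE 0.29, 95% interval 4.77 to 6.01, limma adjusted p = 6.44e-11), a call made for 5.59% of the probes. The difference was 5.54 within the scan day that held the liver arrays (12 arrays of 7 tissues, adjusted p = 9.01e-11) and 5.13 against heart, which shared the slide and where the probe was not well above background.

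Liver also exceeded small intestine by log2 5.35 for Them7 (SE 0.40, adjusted p = 6.88e-09, where 24.5% of the probes were called). In 11 tissues Them7 was not well above background on either array, with Cy3 signals of 57.1 to 77.4 against 1504 and 1818 in liver. These signals include the local background, and in the 11 tissues they set only an upper limit on the level.

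Outside kidney, liver and fat the Them7 log2 ratio ran from -1.07 to -0.07. Small intestine (-0.36 and -0.43) and large intestine (-0.28 and -0.58) were within this range. Small intestine differed from the mean of the other 13 tissues by -0.38 (95% interval -0.99 to 0.24, limma adjusted p = 0.326) and large intestine by -0.41 (-1.03 to 0.21, adjusted p = 0.269). Without fat replicate 1 the differences were -0.29 (adjusted p = 0.0499) and -0.33 (0.0287), and without fat replicate 2 they were -0.46 (0.00407) and -0.49 (0.0024). Within its scan day small intestine differed by -0.35 (adjusted p = 0.00952). All were under the log2 2 of a call, and Them7 was not well above background on the intestine arrays. Between the 2 gut segments the difference was 0.03 (95% interval -0.81 to 0.87, adjusted p = 0.985). The 10 tissues not contrasted singly lay 0.14 to 0.98 below the mean of their others, and 1 of them passed the threshold of the test, cerebellum (-0.98, adjusted p = 0.00921), where the probe was not well above background on either array.

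Eyes were a near-background case. Both genes were flagged well above background in Cy3 on both eye arrays, with log2 ratios of -0.43 and -0.51 for Them7 and 0.09 and 0.21 for 1700011H14Rik. The Cy3 signals were 75.8 and 72.1 for Them7 and 62.5 and 64.8 for 1700011H14Rik, inside the range of the tissues that were not flagged.

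Below kidney the mean log2 ratio of 1700011H14Rik was above 2 in 4 tissues, and that of Them7 in liver alone. In order of their means came fat, large intestine, small intestine and liver, and the arrays of fat, large intestine and small intestine overlapped. In small intestine the log2 ratio was 3.66 and 2.42, a mean of 3.04 ± 0.87 (SD, n = 2). In liver it was 2.20 and 2.31, a mean of 2.25 ± 0.07 (SD, n = 2), just below small intestine without overlap. The remaining 10 tissues lay between -0.19 and 0.30, all below both liver arrays, and their neighbours in the order were not separated from each other. In 8 of them the probe was not well above background on either array, with mean Cy3 signals of 58.8 to 68.0 scanner units. The mean was 201 in liver and 318 in small intestine, while the large intestine arrays were at 1083 and 146.

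In fat and in large intestine replicate 1 exceeded replicate 2 on 1700011H14Rik by more than on nearly any other probe. In fat the log2 ratio was 7.04 on replicate 1 and 0.10 on replicate 2. This difference of 6.94 was reached in the same direction by 0.0381% of the probes. In large intestine it was 5.12 and 1.74, a difference of 3.38 that 0.276% of the probes reached. Probes that differed as much the other way are not in these shares. Together these pairs gave 1700011H14Rik a residual SD of 1.48 across the 14 tissues, compared with a median of 0.27 over all probes, and 99.9% of the probes varied less. Without the fat arrays its SD was 0.71.

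The tests of 1700011H14Rik carry this spread. Among the 14 tissues it missed the threshold (limma F-test, F = 2.31, adjusted p = 0.0594). The adjusted p was 0.00021 without fat replicate 1, 3.15e-06 without fat replicate 2 and 0.0262 without large intestine replicate 2. It also passed with a block for replicate number (0.0434), scan day (0.00032) or slide (0.00263). Large intestine exceeded the mean of the other 13 tissues by log2 2.71 (SE 0.99, 95% interval 0.62 to 4.81, adjusted p = 0.0316), a call made for 4% of the probes. That call rested on replicate 1, since the difference was 1.02 without it and 4.41 without replicate 2. Each of these fits leaves 1 large intestine array, which is assumed to vary like the arrays of the other tissues. With both arrays, median centring ended the call (2.11, adjusted p = 0.0518). The difference was 5.05 with processed signals and 4.86 in the authors' table.

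Fat exceeded the mean of the others by 2.87 for 1700011H14Rik (SE 0.99, adjusted p = 0.0345), a call made for 1.63% of the probes. It turned to -0.60 without fat replicate 1 (adjusted p = 0.539) and was 6.34 without replicate 2 (adjusted p = 1.3e-06). Each of these fits leaves 1 fat array, which is assumed to vary like the arrays of the other tissues. With both fat arrays and slide as a random block, the difference was 2.58 and missed the threshold (adjusted p = 0.0612). For Them7 the fat arrays were 2.03 and -0.10. The difference of 1.09 (SE 0.29, adjusted p = 0.00871) was under the log2 2 that a call required, and it was 0.03 without replicate 1 and 2.15 without replicate 2 (adjusted p = 3.59e-08), again with 1 fat array left.

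Small intestine exceeded the mean of the other 13 tissues by log2 2.30 for 1700011H14Rik (SE 0.99, 95% interval 0.20 to 4.39, limma adjusted p = 0.0692) and was not called, where 5.09% of the probes were. The difference was called with processed signals (4.80, adjusted p = 5.8e-05) and in the authors' table (4.68, 0.000219). It passed without fat replicate 1 (2.56, adjusted p = 0.000247), without fat replicate 2 (2.03, adjusted p = 0.00181) and without large intestine replicate 1 (2.43, adjusted p = 0.0377). Within its scan day, which also held large intestine replicate 1 and fat replicate 1, the difference was 0.58 (10 arrays of 6 tissues, adjusted p = 0.118), and with scan day as a random block it was 0.52 (adjusted p = 0.674).

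Liver exceeded the mean of the others by 1.45 for 1700011H14Rik (SE 0.99, 95% interval -0.64 to 3.54, adjusted p = 0.241). Within the scan day of the liver arrays, which held no fat or intestine, liver exceeded the other 6 tissues by 2.18 (SE 0.09, adjusted p = 1.23e-08). Of these, brain cortex, cerebellum, lung and heart were not well above background. Their signals set only an upper limit on the level, and the SE does not measure a spread of their levels. Liver and small intestine differed by -0.79 (95% interval -3.64 to 2.06, adjusted p = 0.735), which turned to 1.52 with scan day as a random block (adjusted p = 0.495). Small and large intestine differed by -0.39 (-3.24 to 2.46, adjusted p = 0.921, where 10.9% of the probes were called). On the slide that carried both small intestine replicate 2 and large intestine replicate 1, the gut difference was -2.70, with 1 array on each side.

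**Figure D3:**
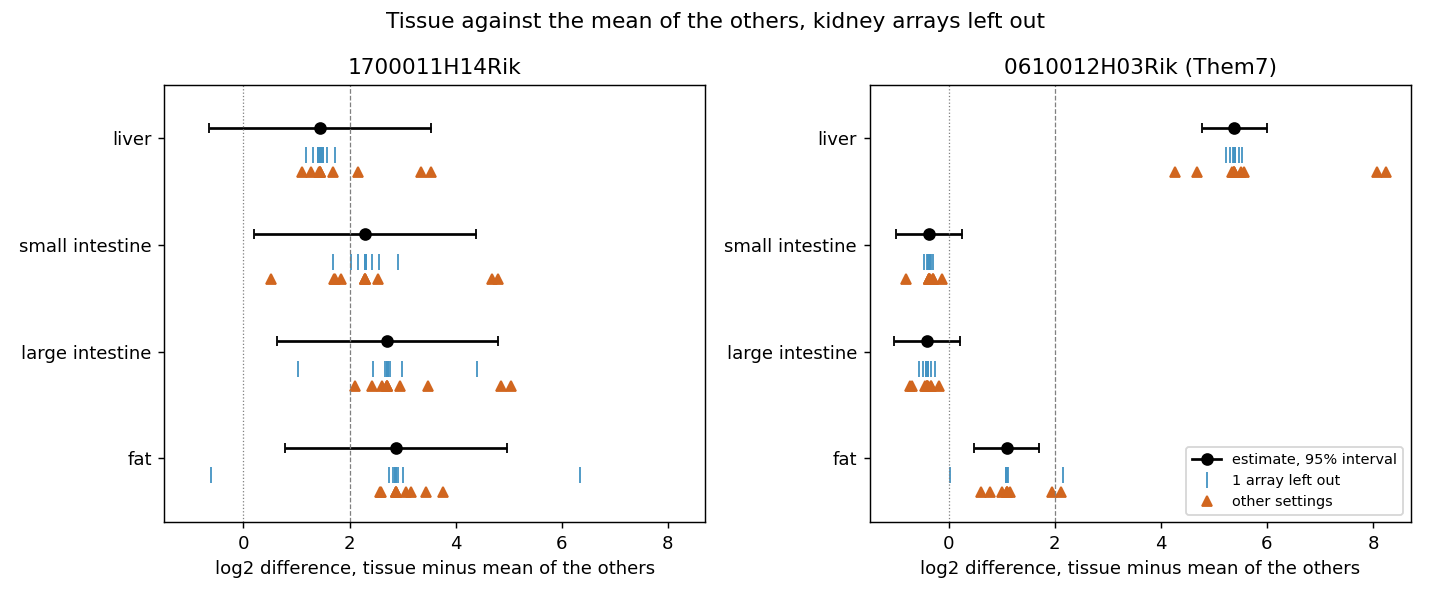
Log2 difference between a tissue and the mean of the other 13, kidney left out, for 1700011H14Rik (left) and Them7 (right). Black points are estimates with 95% intervals, blue ticks leave out 1 array, orange triangles are other settings, and the dashed line marks the log2 2 of a call. The Them7 difference in liver (5.39) stayed above 2 in every setting drawn, whereas the fat value of 1700011H14Rik ran from -0.60 to 6.34.

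Some markers of several cell types were higher on fat replicate 1, as the members were, and others were not. Of all probes, 13.2% were higher by log2 1 or more on replicate 1 and 6.93% on replicate 2, and the counts below stand beside these shares. Crisp4, which encodes a secreted protein of the epididymis and was the only one of 4 epididymis markers measured, had a log2 ratio of 6.72 on fat replicate 1 and 0.01 on replicate 2. Its Cy3 level was 33398 on replicate 1 against 119 on replicate 2 and 94.6 to 166 on the 28 arrays of other tissues. Of 13 measured nephron markers, 5 were higher on replicate 1 by log2 1 or more and 0 on replicate 2, with a summed Cy3 level of 50518 against 19706. These were Tcfap2b (5.10 against -0.05), Pkhd1 (3.97 against -0.05), Slco4c1 (3.27 against -0.17), Col4a3 (1.37 against 0.12) and Tcfcp2l1 (-0.06 against -2.64). Ren1 was at 0.13 and 0.01 on the fat arrays, and the urate transporter gene Slc22a12 at -0.21 and 0.00. Of 10 hepatocyte markers, 1 was higher on replicate 1, C4bp (6.50 against -0.17), while Cps1 (-0.34) and Serpinc1 (-0.03) were near or below the reference. Of 4 enterocyte markers, Lct (2.11 against -0.03) and Vil1 (1.75 against -0.05) were higher on replicate 1 and 2010204N08Rik was lower (-1.25 against -0.19). Of 5 markers of squamous epithelium, Lad1 (1.76 against -2.06) and Serpinb5 (2.16 against -0.01) were higher and Serpinb2 was lower (-1.02 against 0.20). Of 4 markers of exocrine pancreas, 0 were higher by log2 1 on either array.

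Adipocyte markers were present on both fat arrays, with a summed level over 3 genes of 50171 on replicate 1 and 75422 on replicate 2, against 2310 to 49887 on the arrays of other tissues. Of these genes, Agpat2 was higher on replicate 2 (1.65 against 2.93). Among 883 other probes called higher in kidney, 292 (33.1%) were higher on fat replicate 1 by log2 1 or more and 68 on replicate 2, compared with 13.2% of all probes on replicate 1. The part of other cell types in the fat values was not tested.

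In large intestine 1 of 4 measured enterocyte markers differed between the arrays by log2 1 or more. Of all probes, 16.3% were higher by that much on replicate 1 and 8.97% on replicate 2, and the counts below stand beside these shares. The summed Cy3 level of the 4 enterocyte markers was 162460 on replicate 1 and 63971 on replicate 2, against 850750 and 1185200 in small intestine. The marker that differed was 2010204N08Rik, now Sis, the sucrase-isomaltase gene of the small intestinal brush border, at 7.91 on replicate 1 and -0.46 on replicate 2. Vil1, the villin gene, stood at 5.61 and 5.12, Alpi at 3.47 and 3.03, and Lct at 0.64 and 0.83. Other lists differed too. Of 10 hepatocyte markers, Cps1, which was also high in small intestine (at least 6.66), stood at 4.34 on replicate 1 and -0.14 on replicate 2, and Apoa2 was higher on replicate 2 (0.12 against 1.15). Of 13 nephron markers, 3 were higher by log2 1 or more on replicate 2 and 0 on replicate 1, and of 28 genes of fatty acid activation and beta-oxidation, 9 were higher on replicate 1 and 1 on replicate 2. Within small intestine, replicate 1 had the higher 1700011H14Rik value and the lower summed enterocyte level. The part of other cell types in these values was not tested.

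**Figure D4:**
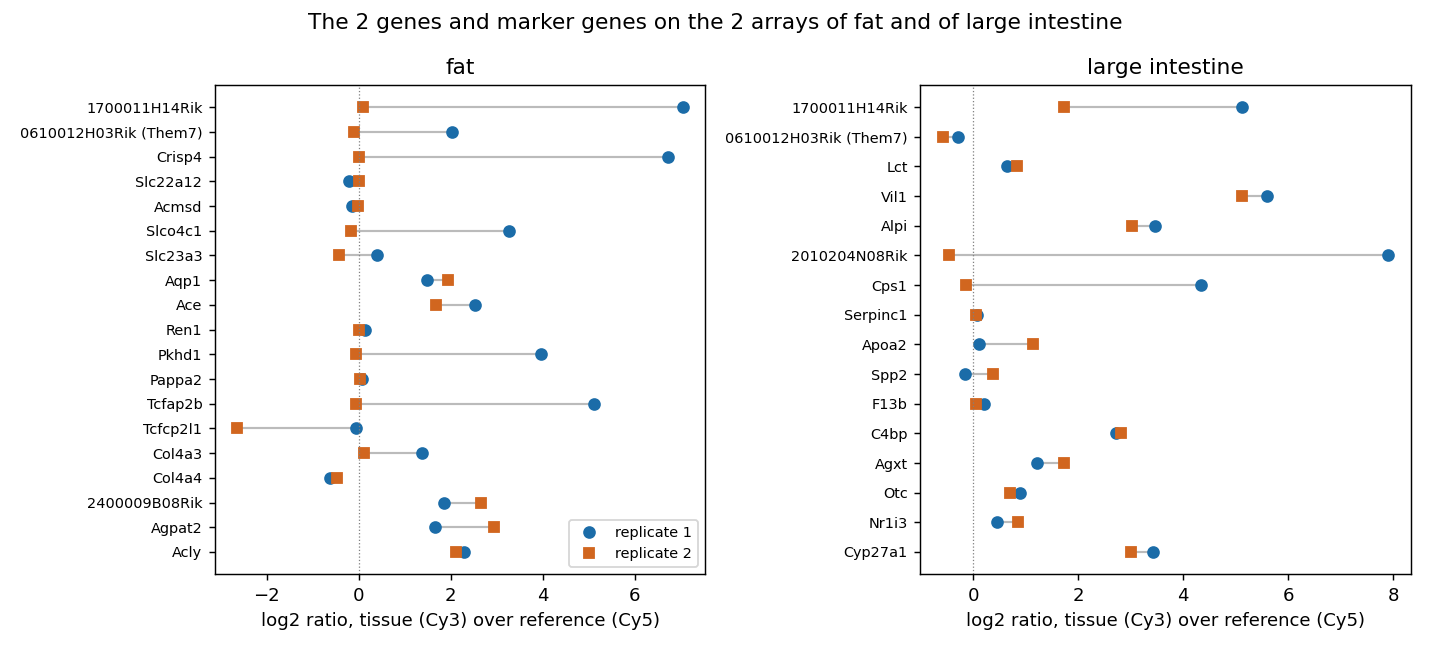
Log2 ratio of 1700011H14Rik, Them7 and the measured marker genes on replicate 1 (circles) and replicate 2 (squares). The fat panel shows epididymis (Crisp4), nephron (Slc22a12 to Col4a4) and adipocyte (2400009B08Rik, Agpat2, Acly) markers, and the large intestine panel shows enterocyte (Lct to 2010204N08Rik) and hepatocyte (Cps1 to Cyp27a1) markers. On the fat arrays 1700011H14Rik (7.04 and 0.10) and Crisp4 (6.72 and 0.01) differed by similar amounts, while Ren1 was near 0 on both.

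The shape of the tissue profiles was compared over the tissue means, as a description, since all genes share the same arrays. The 2 members had a Pearson r of 0.77 with each other over 15 tissues (Spearman rho 0.45) and 0.43 over the 14 without kidney (rho 0.32). On the information measure, which is 0 bits for an even profile and 3.91 bits for a gene seen in 1 of 15 tissues, 1700011H14Rik reached 2.84 bits and Them7 2.35, against a median of 0.16 over all probes. The values over 15 tissues include the kidney levels by which the members were chosen, and are a description only. Without kidney 1700011H14Rik held 0.80 bits and Them7 2.11, of at most 3.81, against a median of 0.16. Of all probes, 86.3% held fewer bits than 1700011H14Rik and 98.6% fewer than Them7.

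Among 5048 probes with a symbol, F13b and Spp2 had the profiles most like that of Them7 over 15 tissues, with r of 0.97 and 0.96. F13b encodes a subunit of coagulation factor XIII and Spp2 a secreted phosphoprotein made in liver. Both were high in the same organs as Them7 but in the other order, with mean log2 ratios of 6.98 in kidney and 7.79 in liver for F13b and of 7.44 and 8.07 for Spp2. Lactb2, 3110045C21Rik and the peroxisomal thioesterase gene Acot3 followed with r of 0.95, 0.94 and 0.94. The rank correlation was lower, 0.51 for F13b, 0.09 for Spp2, 0.75 for Lactb2, 0.70 for 3110045C21Rik and 0.26 for Acot3. Over the 14 tissues without kidney the leading genes were Rcl1 and C730036E19Rik, with r of 0.97 and 0.96 and liver levels of 1.97 and 4.43.

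For 1700011H14Rik the most alike over 15 tissues were 4930573C15Rik (r = 0.92), Acox3 (0.90), 4833409A17Rik (now Pyroxd2, 0.89), 1810022C23Rik (now Eci3, 0.87) and Tmbim4 (0.85). Acox3 encodes a peroxisomal acyl-CoA oxidase and Eci3 an enoyl-CoA isomerase. Their log2 ratios in kidney were lower, from 2.03 for 4930573C15Rik and Acox3 to 6.31 for Eci3, compared with 8.01. Each ratio depends on the signal of that gene in the reference, so these values do not rank the genes by level. Acox3 also differed between the fat arrays, at 1.29 on replicate 1 and 0.09 on replicate 2. Over 14 tissues 2010003K11Rik led (r = 0.92), followed by Pgm3 and Dhrs7b (both 0.87), and the kidney level of 2010003K11Rik, 2.34, was below its levels in small and large intestine (5.01 and 4.84).

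Them7 was set beside 10 other acyl-CoA thioesterases, all measured. In kidney 2 of them were called higher than the mean of the other 14 tissues and 0 lower, where 4.21% and 2.09% of all probes were, and the median difference was 1.03 against -0.11 over all probes tested. Acot12, a cytosolic thioesterase that acts on acetyl-CoA, was higher by log2 6.44 (adjusted p = 5.53e-16) and Acot4, a peroxisomal enzyme, by 2.06 (adjusted p = 9.29e-10). Acot12 had log2 ratios of 7.22 and 7.60 in kidney, 7.59 and 6.81 in liver, and 5.17 and 5.86 in small intestine, where Them7 was at the level of the remaining tissues. In liver 1 of the 10 was called higher, Acot12 (6.21, adjusted p = 4.04e-16), where 5.4% of all probes were, and 1 lower, the mitochondrial Acot9 (-2.59, adjusted p = 1.37e-06), where 4.44% were. The median difference in liver was 0.10 against -0.10 over all probes. Both contrasts share most of their comparison arrays.

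Among 28 genes of fatty acid activation and beta-oxidation, all measured, 6 were called higher in kidney and 1 lower, compared with 4.21% and 2.09% of all probes, with a median difference of 1.03. The 6 were Acsm3, a medium-chain acyl-CoA synthetase gene (5.26), Pecr, a peroxisomal enoyl-CoA reductase gene (3.79), the peroxisomal thiolase gene Acaa1b (3.29), Acad10 (2.37), the medium-chain dehydrogenase gene Acadm (2.01) and the mitochondrial thiolase gene Acat1 (2.01). Acsl6, a long-chain acyl-CoA synthetase gene, was lower (-2.34). In liver 8 were called higher and 0 lower, compared with 5.4% and 4.44% of all probes, with a median of 1.35, and Acsm3 (4.82), Pecr (3.76) and Acaa1b (3.67) were called in both organs. Acsm3, like Them7, was highest in kidney and next in liver, with log2 ratios of 7.77 and 7.64 in kidney and 7.24 and 7.33 in liver, but it stood at 4.29 and 3.96 on the fat arrays, where Them7 was at 2.03 and -0.10.

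**Figure D5:**
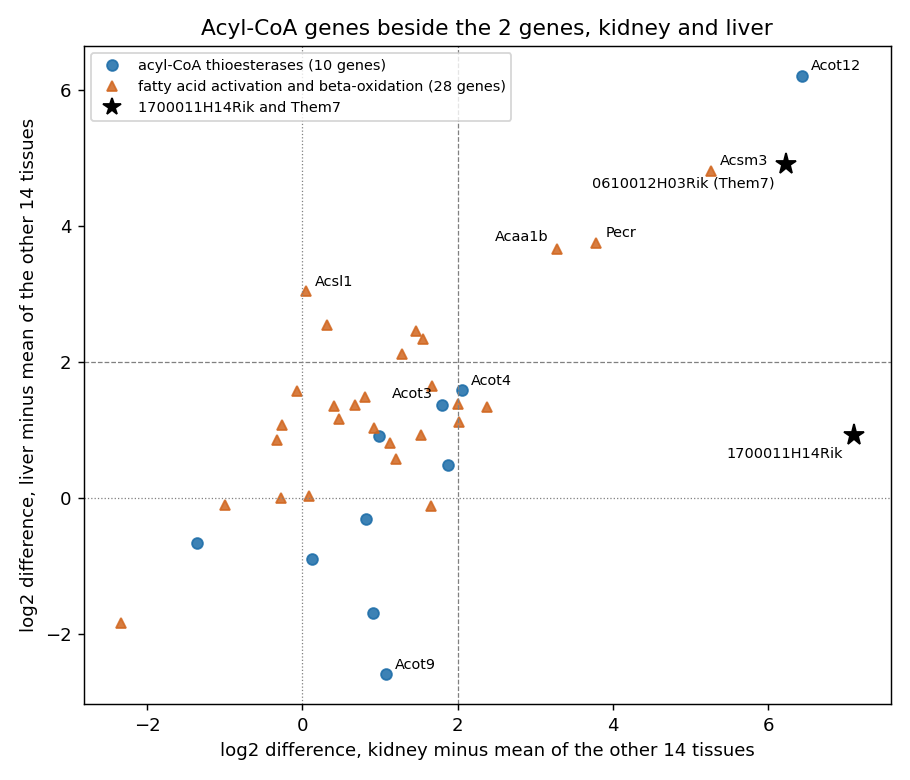
Log2 difference of kidney (x) and of liver (y) from the mean of the other 14 tissues for 10 acyl-CoA thioesterases (circles), 28 genes of fatty acid activation and beta-oxidation (triangles), and the 2 members (stars), which were chosen on the x axis. Dashed lines mark the log2 2 of a call. Them7 lies near Acot12 and Acsm3, high on both axes, and 1700011H14Rik at 7.10 in kidney with 0.93 in liver.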

How the data were processed

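RNA of 15 tissues was hybridised to 30 two-colour Agilent arrays (11 slides, 5 scan days). Spot values were extracted by the authors with Feature Extraction 9.5.1.1. Per spot, the deposited files give mean, background and processed signals of both channels as intensity, beside flags. The deposited value table (25030 probes) is on a log10 scale. Regressed on the spot files, it moved with processed Cy3 (slope 1.00) and against the array-to-array deviation of Cy5 (slope -1.00, R² 1.00), so its direction is tissue over reference. Other deposited score and flag columns served only to drop or mark spots.

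Mean signals were background-corrected by normexp (offset 50), outlier spots were dropped (475 in all) and each array was normalised by loess before log2(Cy3/Cy5) was taken. A probe was kept if both arrays of at least 1 tissue were well above background in Cy3. This left 20975 probes for the 14 tissues without kidney and 21026 for all 15. Models with 1 coefficient per tissue were fitted in limma 3.58.1 (R 4.3.3), with 14 residual degrees of freedom without kidney and two-sided p-values adjusted by Benjamini and Hochberg over all probes. A tissue was called against the mean of the others at an adjusted p under 0.05 and a log2 difference of at least 2, and a pair of tissues at a difference of at least 1. Fits were tested on simulated data. Alternatives changed the signal, the normalisation, the filter, blocks for replicate number, slide and scan day, and each array in turn.

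Symbols came from the probe lists of the study, which name 5900 probes of the array, and current names, genes and promoters from RefSeq (GRCm38.p6). Named genes were the members, the next 3 named genes in kidney, the 5 most alike over 15 tissues and 3 over 14, and list genes that were called or stand beside a member. The brightest probe stood for a list gene. Some genes that these rules name are not reported here. The members and the lists were chosen with earlier results of these data known. With 2 arrays per tissue, their number limits the precision, and p-values measure the spread between these arrays. The series text speaks of different animals for most tissues.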

Additional observations from a re-analysis of the deposited data

How the results depend on the processing

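The Them7 difference in liver kept its direction and call under every alternative run, from 4.26 with median centring to 8.24 with the processed signals, and from 5.24 to 5.54 with 1 array left out. With 2 arrays per tissue their number limits the precision. The reference channel of 1700011H14Rik was well above background on 4 of 30 arrays. The settings that leave out both fat arrays, take slide as a random block or stay within a scan day were chosen after seeing the data, and causes of the changes below were not tested.

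The F-test of 1700011H14Rik passed with processed signals (adjusted p = 3.44e-06), the Cy3 level alone (0.0491), the authors' value table (2.8e-05), scan day or slide as a random block (0.00032 and 0.00263) and without both fat arrays (0.000156), and ran from 3.15e-06 to 0.115 with 1 array left out. Its liver difference passed with processed signals (3.53), the authors' table (3.34) and scan day as a random block (2.16). With 1 array left out the liver difference ran from 1.18 to 1.72. Its small intestine difference passed with processed signals (4.80), the authors' table (4.68) and without the fat arrays (2.53), was 0.52 with scan day and 1.73 with slide as a random block, where it missed, and ran from 1.68 to 2.91 with 1 array left out. Its large intestine difference missed with median centring (2.11) and ran from 1.02 to 4.41 with 1 array left out. Its fat difference missed with slide as a random block (2.58) and ran from -0.60 to 6.34, while that of Them7 passed with processed signals (2.12) and ran from 0.03 to 2.15.

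Between liver and small intestine 1700011H14Rik turned to 1.52 with scan day as a random block. Between small and large intestine it was -2.70 with slide as a fixed block, a comparison of 1 array with 1 that is given with no test, and ran from -2.08 to 1.30 with 1 array left out. Them7 there turned to -0.16 with slide as a fixed block, -0.33 with scan day and -0.18 with slide as random blocks, and ran from -0.12 to 0.18. The fixed block gave no estimate for the other comparisons, since liver and heart, and fat replicate 1, shared a slide with no other tissue. The kidney difference of Them7 was 8.24 with processed signals, 5.58 with median centring and 8.08 in the authors' table. The r between the members over 14 tissues was 0.51 with processed signals, 0.50 in the authors' table, and 0.46 and 0.56 with 1 replicate of each tissue.

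Numbers of probes called also moved. The F-test called 30489 instead of 18857 over all probes of the array. Large intestine had 1411 with processed signals, 525 with median centring and 1365 in the authors' table instead of 840. Fat had 781, 207 and 736 instead of 341, and 335 to 797 with 1 array left out. The gut pair had 1243 with median centring and 1394 with slide as a fixed block instead of 2283, and 1092 to 5707 with 1 array left out.

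Replicate numbers did not pair the arrays. The correlation of replicate deviations over 105 tissue pairs had a median of 0.05 and exceeded 0.1 in 33. With the replicate block the F-test of 1700011H14Rik had an adjusted p of 0.0434, and no other call on a member changed.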
